A study of Mus musculus with 10 samples.

Results

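Embryonic mouse testis was compared at E12.5 and E11.5 (days post coitum), the stages that bracket the first day of testis differentiation. The comparison holds 4 of the 10 arrays of a developmental time course, 2 titled for each stage, and every gene on the array was eligible. The values were linear hybridisation intensities (signals) from Affymetrix Mouse430_2 arrays, which read short stretches of each transcript with groups of probes called probe sets. Each of the 2 arrays of a stage had its own testis preparation. No treatment, allele or transgene is named in the labels. The sources used here do not give the strain, the embryos per preparation or the fate of the attached mesonephros. Of 18193 genes with a named probe set, 10916 were tested, those whose mean of log2(signal + 16) over the 10 arrays reached the equivalent of a signal of 49.1.

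At this age the gonad turns from a ridge of tissue that can become testis or ovary into a testis. The Y-linked gene Sry acts in supporting cells, which become Sertoli cells, surround the germ cells and build cords bounded by a basement membrane. Sertoli cells secrete hedgehog and other signals, and the cells between the cords give rise to Leydig cells, which make steroids, and to peritubular and vascular cells. Germ cells enter the gonad as dividing cells before this time. Sertoli cell markers as a class are only touched on here, and the description turns to the other genes and families.

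The arrays bore out the gonad label. Wt1, a transcription factor of the early gonad, lay between 1071 and 1881 on the 4 arrays, and Gata4, another, between 387.3 and 697.4. Sry fell short of the filter and so had no test, and its signals were 125.2 and 147.7 at E11.5 and 43.8 and 17.1 at E12.5. Xist, which is transcribed from the inactive X of female cells, measured 34.5 and 43.6 at E11.5 and 100.3 and 44.6 at E12.5 and was not tested either. The median signal was 35.2 to 42.3 over the 4 arrays. As a reading of RNA quality, actin signal at the 3′ end over that at the 5′ end was 1.84 and 1.57 at E11.5 and 1.93 and 2.03 at E12.5. Over the tested genes Pearson correlation was 0.965 between the E11.5 arrays, 0.976 between the E12.5 arrays and 0.947 to 0.958 between stages (genes are not independent replicates). Both E11.5 arrays were scanned on one day and both E12.5 arrays on another, so scanning day and stage cannot be told apart in any result below. Each stage had 1 array in fluidics module 1 and 1 in module 2.

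Between the stages 357 genes changed (3.27% of those tested), of which 213 rose (1.95%) and 144 fell (1.32%). A gene was called when its moderated contrast in limma, fitted to all 10 arrays on log2(signal + 16), had an adjusted p under 0.05. Adding 16 keeps noise at low signal from dominating, and folds on this scale understate the change of low genes. In all 357 the arrays of the stages did not overlap, a state also found in 19.7% (E12.5 above) and 22.4% (E12.5 below) of tested genes. The change was at least 2-fold in 216 of them. Over all tested genes the median log2 difference was -0.01, and 48.9% of the differences were above 0. An unadjusted p under 0.05 in limma was reached by 863 tested genes upward and 702 downward. A simulation of the same size recovered 83 of 100 genes changed by a log2 of 1, with 17 false calls in the whole run. Its noise was independent for each gene and array, so it held no shift shared by the genes of an array. In the data the number called depended on single arrays. Leaving out E11.5 replicate 1 gave 208 and its partner 368. Leaving out E12.5 replicate 1 gave 225 and its partner 148. It was 158 when only the 4 arrays were fitted. Each of the 10 arrays was left out in turn, and 113 genes (72 that rose and 41 that fell) passed in all 10 fits. Such genes are described below as holding in every fit. A fit with fewer arrays detects less, so a missed threshold alone does not show that a call rested on the array left out. Where leaving out an array of the 2 stages left 1 sample, that sample was taken to vary as the other stages did. A signal is a sum over the mixed cells of the tissue, so fewer cells of a type and less RNA per cell cannot be told apart.

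With clone and predicted gene names left out, the 15 called genes with the largest rise were Col9a3, Ptgds, Cst9, Aard, Enpep, Dhh, Amh, Defb19, Gstm6, Hbb-b2, Prokr2, Tesc, Dazl, Tgm2 and Hhip. Of these, Ptgds, Cst9, Aard, Dhh and Amh are on the Sertoli cell list used here. The others are not on it, but which cells carried their rise was not tested. Enpep, an aminopeptidase of the cell surface that acts on angiotensin, measured 55.8 and 104.1 at E11.5 and 474.4 and 569.0 at E12.5 (5.77-fold, log2 2.53, SE 0.21, adjusted p 3.53e-05). Tgm2, a transglutaminase that cross-links proteins in and around cells, measured 368.3 and 265.6 and then 1348 and 1688 (4.63-fold, adjusted p 5.16e-05). Its 6 probe sets gave log2 differences of 0.25 to 2.21, all upward. Defb19, a beta-defensin, went from 54.5 and 80.9 to 305.1 and 553.8, and Tesc, a calcium-binding regulator of sodium-proton exchange, from 59.5 and 85.6 to 378.3 and 440.3. Prokr2, a receptor for prokineticins, was nearly silent on one E11.5 array and low on the other, at 4.0 and 34.7, and reached 133.0 and 156.5 (5.03-fold, adjusted p 0.00215). All of these 5 genes held in every fit. Amh did not: its signals were 4.7 and 4.8 and then 51.0 and 161.2, and its adjusted p of 0.0244 became 0.114 and 0.0903 without E11.5 replicate 1 or 2 and 0.241 without E12.5 replicate 2.

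By the same rule the 15 largest falls were in Cpa1, Taf7l, Snx31, Cyp11a1, Kyat3, Gbp2, Zbtb7c, Adam8, Lancl3, Gk5, Dclk1, Lor, Tnfrsf19, Gadd45g and Asb4. Kyat3, an aminotransferase that acts on kynurenine, measured 1698 and 1184 at E11.5 and 340.6 and 273.8 at E12.5 (4.46-fold lower, log2 -2.16, SE 0.20, adjusted p 5.16e-05). Snx31, a sorting nexin, went from 426.0 and 496.7 to 91.1 and 63.3 (5.17-fold lower, adjusted p 5.16e-05). Dclk1, a kinase that binds microtubules, went from 1362 and 1176 to 378.1 and 328.7 (3.48-fold lower, adjusted p 0.000134), and its 9 probe sets gave log2 differences between -1.80 and -0.31. Gbp2, an interferon-inducible guanylate-binding protein, went from 841.1 and 622.1 to 212.6 and 114.8 (4.28-fold lower). Tnfrsf19, a receptor of the tumour necrosis factor family, went from 521.4 and 458.9 to 184.1 and 93.8 (3.41-fold lower, adjusted p 0.00103). These 5 held in every fit. Lor, the loricrin of the skin envelope, went from 1239 and 887.8 to 288.1 and 299.1, and its adjusted p of 0.00606 became 0.0732 without E11.5 replicate 1. For Zbtb7c, a zinc finger protein, the probe sets disagreed, with log2 differences of -1.98 to 0.31.

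**Figure D1:**
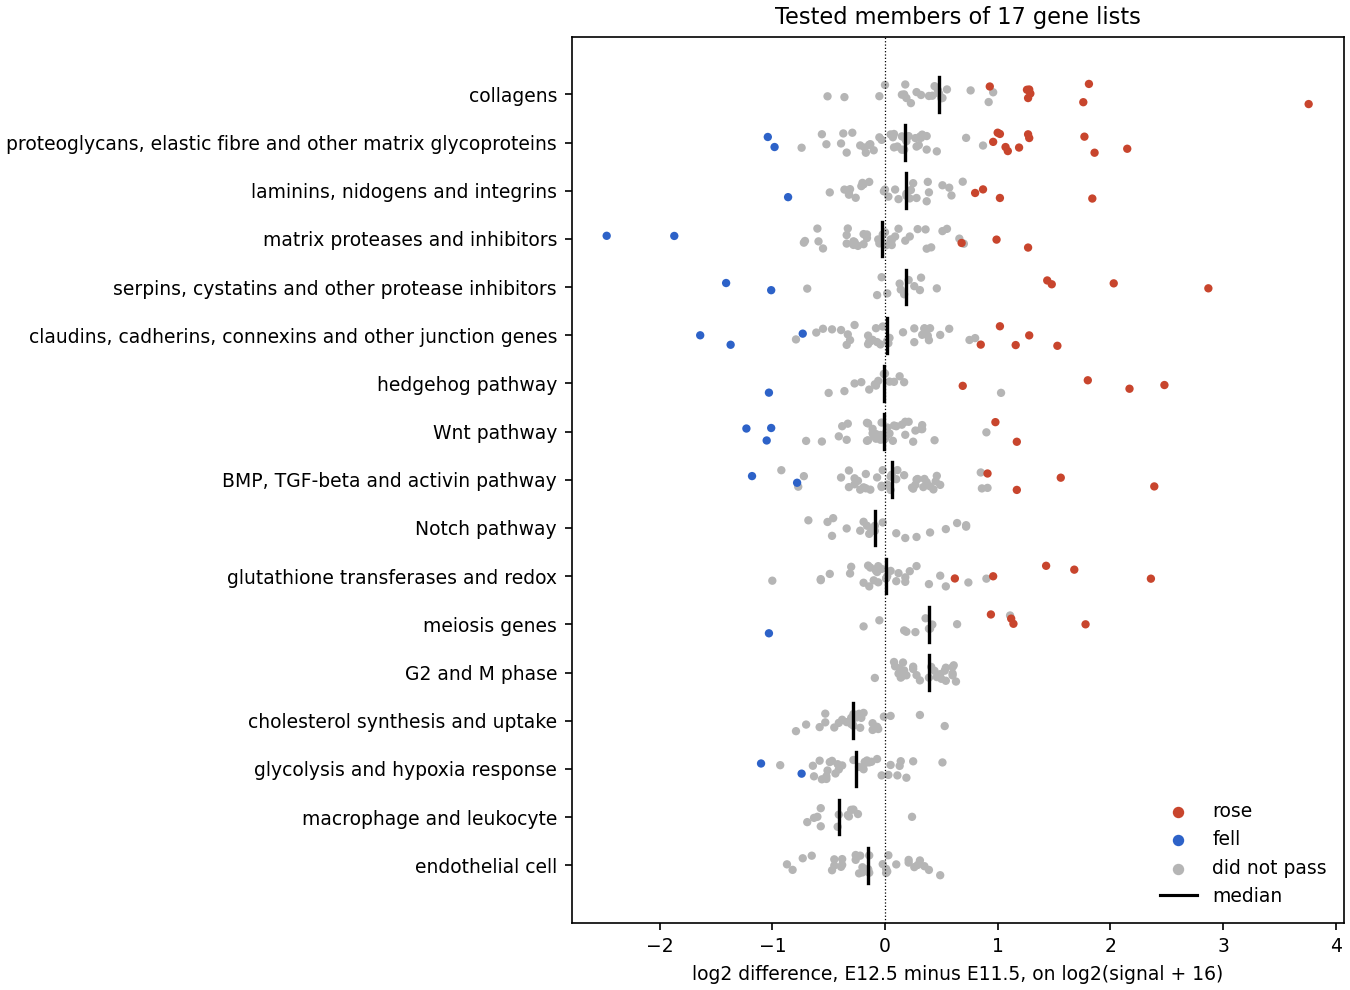
Log2 differences (E12.5 minus E11.5, horizontal axis) of the tested members of 17 gene lists, 1 point per gene with random vertical scatter. Red points rose, blue points fell, grey points did not pass, and black bars are list medians; the collagen median is 0.47 and that of the macrophage list -0.41.

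Genes of the extracellular matrix were the family with the most calls upward. Of 30 collagen genes tested, 8 rose and none fell (26.7% called, against 3.27% of all genes). A log2 difference above 0 was found in 27 of the 30 (48.9% over all tested genes), and the median was 0.47. In the plot of log2 differences by list the collagen points sit mostly to the right of 0. Col9a3, a chain of the type IX collagen that coats cartilage fibrils, had signals of 10.5 and 25.8 at E11.5 and 385.3 and 489.2 at E12.5, which is 13.5-fold on the scale used (log2 3.76, SE 0.37, adjusted p 5.24e-05). Its 3 probe sets gave log2 differences of 0.67 to 3.76, and their mean gave 2.62 (adjusted p 0.000263). Its partner chain Col9a1 measured 52.4 and 79.5 and then 295.0 and 243.0 (3.51-fold, log2 1.81, SE 0.26, adjusted p 0.00111). The third chain, Col9a2, did not reach the filter and went untested, its mean signals being 4.05 and 57.5. Col2a1, the fibril chain that type IX collagen decorates, had mean signals of 46.4 and 99.2 and did not pass (log2 0.92, adjusted p 0.0638).

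Type VI collagen, which forms beaded filaments around cells, rose in all 3 of its tested chains. Col6a2 went from 259.1 and 235.3 to 790.6 and 963.7 (3.38-fold, log2 1.76, SE 0.17, adjusted p 5.16e-05). Col6a1 went from 119.9 and 217.6 to 312.2 and 553.2 (adjusted p 0.0153), and Col6a3 from 104.9 and 156.5 to 287.5 and 385.9 (adjusted p 0.00397). Col18a1, a basement membrane collagen from which endostatin is cut, had signals of 395.9 and 582.2 and then 1050 and 1367 (2.45-fold, adjusted p 0.00565). The fibril-associated Col14a1 and the fibrillar Col27a1 also rose, by 2.40-fold and 1.90-fold. Col9a3, Col9a1 and Col6a2 held in every fit. Without E12.5 replicate 2 the adjusted p was 0.192 for Col6a1, 0.0674 for Col6a3, 0.0831 for Col18a1, 0.0899 for Col14a1 and 0.0545 for Col27a1. Without E11.5 replicate 1 it was 0.131 for Col6a1, 0.0636 for Col18a1, 0.0732 for Col14a1 and 0.0636 for Col27a1, and without E12.5 replicate 1 it was 0.0592 for Col27a1. With the mean of their probe sets Col14a1 and Col27a1 had adjusted p of 0.109 and 0.274. The basement membrane chain Col4a1 measured 801.3 and 658.9 and then 1174 and 879.5 and did not pass (adjusted p 0.365).

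Proteoglycans, elastic fibre proteins and other matrix glycoproteins changed in both directions. Of 50 tested, 11 rose and 2 fell (26.0% called), with a median log2 difference of 0.17 and 33 above 0. Mfap4, a glycoprotein of elastic microfibrils, measured 33.7 and 4.5 at E11.5 and 101.1 and 156.2 at E12.5 (log2 2.15, SE 0.34, adjusted p 0.00234). Lox, the oxidase that cross-links collagen and elastin, measured 42.4 and 65.5 and then 179.6 and 304.0 (3.63-fold, adjusted p 0.000358). The small leucine-rich proteoglycan Ogn (osteoglycin) was at 3.8 and 17.7 and then at 63.5 and 81.3 (log2 1.77, adjusted p 0.000637). The matricellular growth regulators Ccn2 and Ccn4 rose by 2.29-fold and 2.44-fold, from 61.2 and 64.2 to 152.6 and 176.0 and from 84.7 and 94.4 to 231.4 and 250.5. These 5 held in every fit, and for each the higher E11.5 array was well under the lower E12.5 array.

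The leucine-rich proteoglycans Dcn, Bgn, Lum and Fmod also rose. Dcn (decorin) went from 523.5 and 424.5 to 883.5 and 1041 (2.00-fold, adjusted p 0.00452), Bgn (biglycan) from 250.3 and 282.5 to 514.1 and 644.4, Lum (lumican) from 111.1 and 133.2 to 237.1 and 268.7 and Fmod (fibromodulin) from 116.6 and 47.6 to 179.0 and 181.0. The fibulins Fbln2 and Fbln5, which link elastic fibres and basement membranes, rose by 2.41-fold and 2.03-fold. Without E12.5 replicate 2 the adjusted p was 0.0777 for Dcn, 0.0664 for Bgn, 0.14 for Lum, 0.169 for Fmod, 0.0566 for Fbln2 and 0.146 for Fbln5. Fmod passed in 3 of 10 fits, with adjusted p of 0.155 without E11.5 replicate 2 and 0.148 without E12.5 replicate 1. Without E11.5 replicate 1 the adjusted p was 0.101 for Lum and 0.0542 for Fbln2, without E11.5 replicate 2 it was 0.0893 for Fbln5, and without E12.5 replicate 1 it was 0.0522 for Lum. The mean of probe sets gave adjusted p of 0.0663 for Dcn, 0.0728 for Fbln2 and 0.601 for Fbln5, and one probe set of Fbln5 went down (log2 -0.41). The 2 that fell were Ecm1, a secreted glycoprotein, from 234.1 and 223.8 to 92.5 and 114.6, and Hapln1, which links hyaluronan to proteoglycans, from 269.4 and 317.0 to 148.0 and 133.7. Ecm1 did not pass once E12.5 replicate 1 (0.0836) or E11.5 replicate 1 (0.0574) was left out, nor did Hapln1 without E12.5 replicate 2 (0.0854) or, at 0.05, E11.5 replicate 2.

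**Figure D2:**
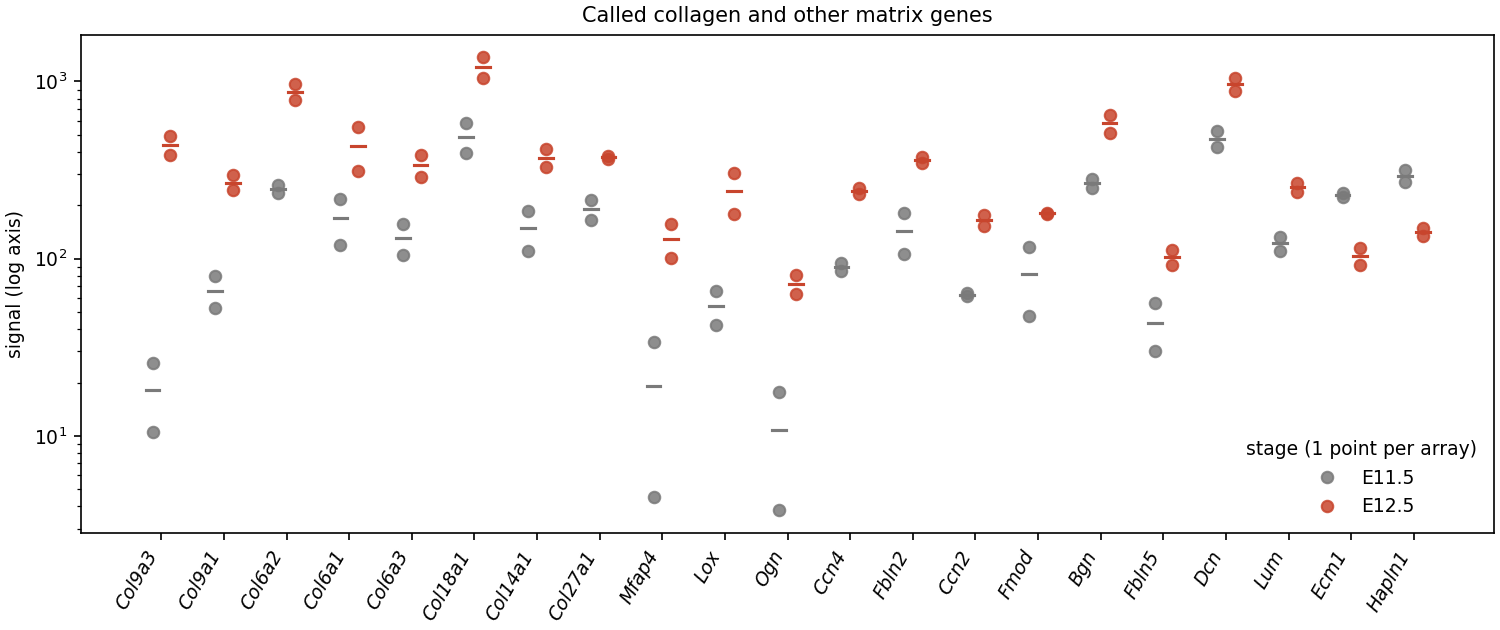
Signal (log axis) of the called collagen and other matrix genes on the 2 E11.5 arrays (grey) and the 2 E12.5 arrays (red), 1 point per array, with bars at the mean of each stage. Red points lie above grey ones for 19 genes and below for Ecm1 and Hapln1.

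Genes of matrix receptors and cell junctions changed in both directions. Of 33 laminin, nidogen and integrin genes 4 rose and 1 fell (15.2% called, median 0.19). Itgb8, an integrin chain whose dimer binds latent TGF-beta, measured 31.6 and 61.9 at E11.5 and 186.2 and 218.8 at E12.5 (3.58-fold, log2 1.84, SE 0.22, adjusted p 0.000301) and held in every fit. The laminin receptor chain Itga6 fell from 776.0 and 909.2 to 492.6 and 422.1 (adjusted p 0.0478), and the calls of Itga6, Itga4, Itga9 and Frem1 each ended without E12.5 replicate 2 (0.275, 0.166, 0.316 and 0.152) and without E11.5 replicate 1 (0.0885, 0.106, 0.175 and 0.217). Itga6 and Itga9 each passed in 4 of 10 fits and Frem1 in 1, and the 5 probe sets of Itga4 ranged from -0.46 to 0.87. Of 43 claudin, cadherin, connexin and other junction genes 5 rose and 3 fell (18.6% called, median 0.02). Pkp2, a plakophilin of desmosomes, fell from 726.2 and 562.7 to 289.2 and 194.4 (2.59-fold lower, adjusted p 0.00234), but its 4 probe sets ranged from -1.37 to -0.02 and their mean gave an adjusted p of 0.0621. Pcdh20, a protocadherin, fell from 167.1 and 192.7 to 59.9 and 36.1 (3.11-fold lower, adjusted p 0.00268), and both probe sets went down. Pkp2 and Pcdh20 held in every fit. Alcam, an adhesion molecule of the immunoglobulin family, rose from 329.0 and 140.4 to 807.3 and 534.0 in all 5 of its probe sets (log2 1.00 to 1.77). Its adjusted p of 0.0129 became 0.0792 without E11.5 replicate 2 and 0.13 without E12.5 replicate 1. Pcdh8 rose from 74.5 and 54.5 to 136.2 and 192.0, a call that ended without E12.5 replicate 2 (0.105).

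Protease and protease inhibitor genes changed in both directions. Of 18 serpins, cystatins and other inhibitors 4 rose and 2 fell (33.3% called, median 0.19). Of 43 matrix proteases and their inhibitors 3 rose and 2 fell (11.6% called, median -0.03). Serpinb1a, an inhibitor of neutrophil-type serine proteases, went from 59.3 and 27.0 to 218.9 and 213.7 (4.08-fold, log2 2.03, SE 0.23, adjusted p 0.000184). Its relative Serpinb6b went the other way, from 915.4 and 809.4 to 446.9 and 390.8 (2.02-fold lower), with an adjusted p of 0.0777 without E12.5 replicate 2. Wfdc1, a secreted whey acidic protein domain inhibitor, went from 12.7 and 11.1 to 53.7 and 66.4 (adjusted p 0.000472), and Itih5, which binds hyaluronan, from 19.4 and 22.9 to 70.8 and 107.6 (adjusted p 0.000517). The call of Itih5 ended with the mean of its 3 probe sets (log2 0.42, adjusted p 0.466). Among the proteases Cpa1, a secreted carboxypeptidase, fell from 492.2 and 796.1 to 114.6 and 87.5 (5.53-fold lower, log2 -2.47, SE 0.32, adjusted p 0.000517), and Adam8, a membrane-bound metalloprotease, from 296.0 and 218.3 to 81.4 and 40.5 (3.64-fold lower, adjusted p 0.00114). Apart from Serpinb6b, the genes named in this paragraph held in every fit.

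The hedgehog ligand Dhh and the pathway genes Ptch1 and Hhip rose. Of 20 pathway genes tested 4 rose and 1 fell (25.0% called), while the median was -0.01 and 10 were above 0. Dhh, the ligand made by Sertoli cells, went from 55.5 and 62.2 to 381.2 and 424.0 (5.59-fold, log2 2.48, SE 0.19, adjusted p 1.44e-05). Ptch1, the receptor whose own transcription answers the ligand, went from 275.9 and 281.0 to 944.5 and 1083 (3.49-fold, log2 1.80, SE 0.17, adjusted p 5.16e-05). Hhip, a ligand-binding inhibitor that is also a response gene, was near 0 on both E11.5 arrays, at 3.1 and 2.3, and measured 57.8 and 80.5 at E12.5 (log2 2.17, SE 0.24, adjusted p 0.000151). These 3 held in every fit, and no array of one stage came near the other stage.

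The transcription factors of the pathway moved less. Gli1, a response gene, measured 29.4 and 52.7 and then 78.7 and 121.0 and did not pass (log2 1.03, SE 0.27, adjusted p 0.0524). Gli2, the main activator, went from 210.8 and 233.7 to 394.8 and 345.0 (1.62-fold, adjusted p 0.0373), and it passed in 2 of 10 fits, with a highest adjusted p of 0.271 without E12.5 replicate 1. Scube3, a secreted protein that can aid ligand release, fell from 118.6 and 121.6 to 36 and 69.7 (adjusted p 0.0491) and passed in 1 of 10 fits, with a highest adjusted p of 0.41 without E12.5 replicate 1. The signal transducer Smo and the repressor Gli3 had mean signals of 573 and 525 and of 330 and 284, and neither passed.

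**Figure D3:**
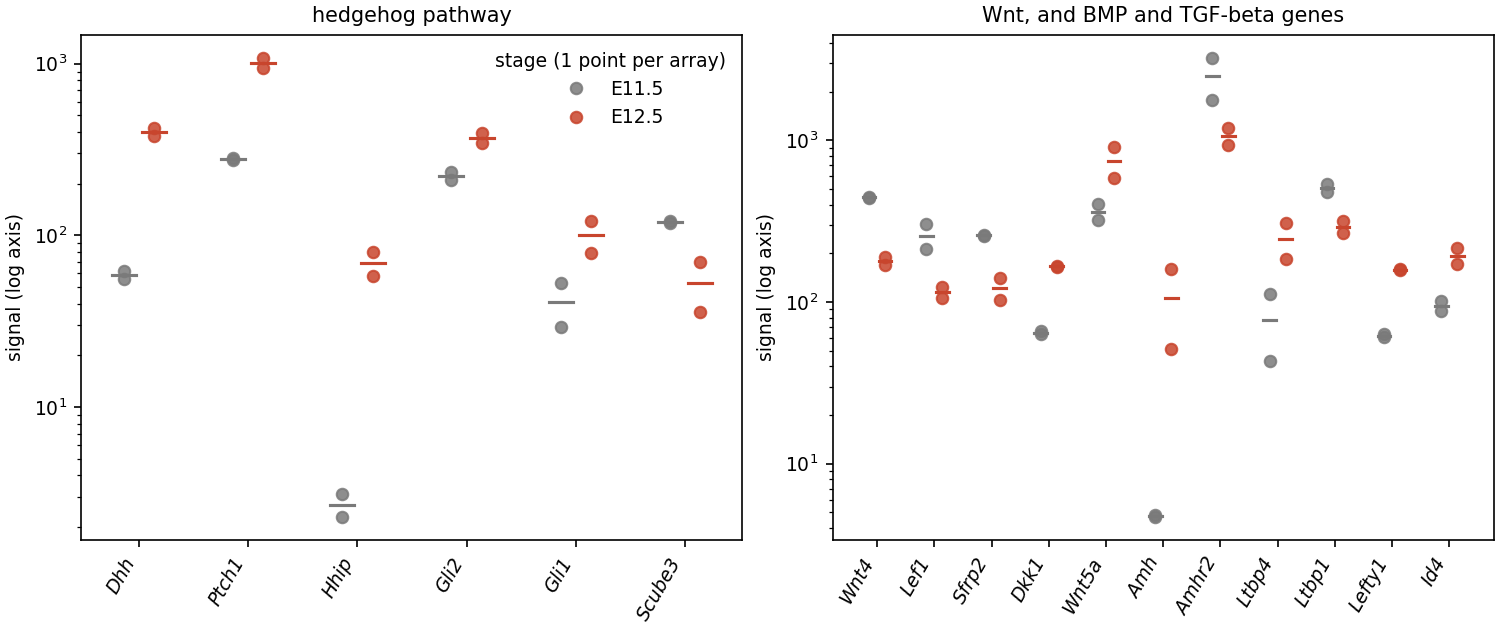
Signal (log axis) of hedgehog genes (left) and of called Wnt, BMP and TGF-beta genes (right) on the 2 E11.5 arrays (grey) and the 2 E12.5 arrays (red), 1 point per array, with bars at the mean of each stage. Hhip and Amh lie under 5 on both E11.5 arrays, and Gli1 is the only gene shown that did not pass.

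Genes of the Wnt pathway changed in both directions. Of 43 genes of the Wnt pathway 2 (Dkk1 and Wnt5a) rose and 3 (Wnt4, Lef1 and Sfrp2) fell (11.6% called, median -0.01). Wnt4, a ligand needed for ovary development, went from 440.1 and 447.8 to 169.6 and 191.2 (2.35-fold lower, log2 -1.23, SE 0.21, adjusted p 0.00426) and held in every fit. Lef1, a transcription factor that carries the canonical signal, went from 303.5 and 212.5 to 124.5 and 105.3 (2.07-fold lower, adjusted p 0.0125). The secreted modulator Sfrp2 went from 257.1 and 260.6 to 102.7 and 141.0 (2.01-fold lower, adjusted p 0.0177). Dkk1, an inhibitor that binds Wnt coreceptors, went up from 63.4 and 66.2 to 164.3 and 168.0 (2.25-fold, adjusted p 0.00729), and the ligand Wnt5a from 402.7 and 321.9 to 581.4 and 904.4 (1.97-fold, adjusted p 0.0316). The calls of Dkk1, Lef1 and Wnt5a ended without E12.5 replicate 2 (0.0837, 0.13 and 0.305) and without E11.5 replicate 1 (0.05, 0.122 and 0.0602). That of Dkk1 ended without E12.5 replicate 1 (0.0576) and that of Sfrp2 without it (0.183) or either E11.5 array (0.0838 and 0.0697), while Wnt5a also missed without E11.5 replicate 2 (0.135) or either E16.5 array (0.0508 and 0.0506). Rspo1, which strengthens Wnt signals in the ovary, measured 353.1 and 289.2 and then 204.1 and 218.9 and did not pass (log2 -0.56, adjusted p 0.117).

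Anti-Müllerian hormone and its receptor moved in opposite directions. Among 47 genes of the BMP, TGF-beta and activin pathway 4 rose and 2 fell (12.8% called, median 0.06). While Amh came up from a signal under 5, Amhr2, its type II receptor, fell from 3247 and 1776 to 1187 and 930.8 (2.27-fold lower, log2 -1.18, SE 0.25, adjusted p 0.0194), and all 3 of its probe sets went down. The Amhr2 call ended once E12.5 replicate 2 (0.173) or E11.5 replicate 1 (0.145) was left out, and that of Amh as given above. Of the latent TGF-beta binding proteins, which hold the ligand in the matrix, Ltbp4 rose from 43.2 and 111.4 to 185.6 and 308.3 and Ltbp1 fell from 539.0 and 479.9 to 317.1 and 266.1. Without E11.5 replicate 1 their adjusted p was 0.129 and 0.0972, and without E12.5 replicate 2 it was 0.169 and 0.194. Ltbp1 had an adjusted p of 0.184 with the mean of its probe sets. Lefty1, a secreted inhibitor of Nodal, rose from 63.1 and 60.4 to 160.2 and 157.7 (2.25-fold, adjusted p 0.00855), and missed without either E12.5 array (0.0623 and 0.0754).

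Promoters of the called genes were searched for 4 short motifs on both strands. Of the 357 genes 277 had an entry in RefSeq's promoter table (GRCm38.p6, from upstream of each start to just inside the transcript, 300 bases each, 372 promoters). The GLI motif GACCACCCA was in none of these 372 and in 0.253% of all 32851 promoters, the SF1 motif CAAGGTCA in 1.34% against 1.56%, the SOX motif AACAAT in 5.91% against 10.7% and the GATA motif AGATAA in 6.18% against 11.2%. None of these motifs contains another. The 32851 promoters were not limited to tested genes, whereas every called gene had passed the signal filter. Why the shares differ was not tested. SF1 (Nr5a1) is a nuclear receptor that acts on steroid and Amh pathway genes, and the motif was found in 5 called genes. The promoters of Amhr2, which fell, and Col9a1, which rose, are printed because they are the called list members with the motif. Capitals mark it, and in Col9a1 it reads on the other strand. They lie on the plus strand at chr15:102445117-102445416 and chr1:24177360-24177659.
Amhr2: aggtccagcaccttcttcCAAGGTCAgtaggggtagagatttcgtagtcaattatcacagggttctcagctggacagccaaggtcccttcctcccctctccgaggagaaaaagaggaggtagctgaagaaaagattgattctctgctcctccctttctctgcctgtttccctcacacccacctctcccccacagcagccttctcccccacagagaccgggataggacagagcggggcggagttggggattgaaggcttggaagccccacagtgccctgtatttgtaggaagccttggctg
Col9a1: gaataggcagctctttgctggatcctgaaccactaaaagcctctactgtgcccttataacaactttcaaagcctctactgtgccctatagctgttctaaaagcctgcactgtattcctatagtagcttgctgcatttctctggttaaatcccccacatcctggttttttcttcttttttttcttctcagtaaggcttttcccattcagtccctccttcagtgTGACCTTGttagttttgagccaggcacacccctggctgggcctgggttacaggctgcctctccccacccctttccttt
The motif covers bases 19 to 26 of the Amhr2 sequence and bases 223 to 230 of the Col9a1 sequence. Nr5a1 itself measured 409.4 and 669.9 and then 344.9 and 334.4 and did not pass (log2 -0.60, adjusted p 0.365).

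Other signalling families contributed few called genes. Fgf13, an intracellular member of the fibroblast growth factor family, went from 52.2 and 51.5 to 174.4 and 140.4 (2.54-fold, log2 1.35, SE 0.20, adjusted p 0.00189), while Fgf9, a secreted factor of Sertoli cells, measured 111.6 and 156.2 and then 152.6 and 214.4 and did not pass (adjusted p 0.455). In the insulin and IGF list 2 of 18 rose and none fell (11.1% called). Igfbp7, a secreted binding protein, went from 64.9 and 121.3 to 273.2 and 414.2 (3.35-fold, adjusted p 0.00283, its 3 probe sets ranging from -0.08 to 1.74). Grb14, an adaptor that restrains the insulin receptor, went from 92.3 and 103.2 to 199.1 and 215.6 (1.96-fold, adjusted p 0.00313). Gfra2, a coreceptor for neurturin, went from 48.1 and 32.8 to 174.2 and 168.5 (3.35-fold, adjusted p 0.000642), but of its 5 probe sets the one tested when those marked _x_at or _s_at were left out gave a log2 of 0.12 (adjusted p 0.868). The chemokine Ccl17, which draws lymphocytes, went from 6.8 and 18 to 80.3 and 61.9 (log2 1.64, adjusted p 0.000517). Fgf13, Igfbp7, Grb14, Gfra2 and Ccl17 held in every fit. None of 21 Notch genes and none of 19 PDGF, VEGF and angiopoietin genes passed in limma, and their medians were -0.09 and -0.08. At an unadjusted p under 0.05 in limma the counts were 9 of 21 and 8 of 19. Both are larger shares than the 863 upward and 702 downward among all 10916 tested genes. The Leydig and stromal receptor Pdgfra measured 672.2 and 923.3 and then 1181 and 1283 (log2 0.63, adjusted p 0.0763).

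Some transcription factors of the undifferentiated gonad fell. Of 19 bipotential gonad factors 5 fell, none rose and 14 did not pass (26.3% called, median -0.28, 8 above 0). The 5 were Gadd45g, Nr0b1, Emx2, Wt1 and Kdm3a, and values of Gadd45g and Kdm3a are given below with other families. Nr2f1 and Gata6, also described here, belong to other transcription factor lists. Nr0b1 (Dax1), a nuclear receptor that opposes SF1, went from 297.0 and 292.9 to 80.3 and 79.9 (3.24-fold lower, log2 -1.69, SE 0.21, adjusted p 0.000358). Emx2, a homeobox factor needed for gonad growth, went from 1580 and 1114 to 628.6 and 638.9 (2.07-fold lower, adjusted p 0.0108), and its antisense transcript Emx2os from 324.3 and 354.1 to 131.0 and 152.9 (2.25-fold lower). Emx2os is named here after its values were seen, and probe sets of a gene and its antisense partner may not be independent. Nr2f1, an orphan nuclear receptor, went from 353.8 and 459.3 to 164.9 and 152.1 (2.40-fold lower, adjusted p 0.00105). Gata6 fell from 914.6 and 658.4 to 410.1 and 372.2, and Wt1 from 1804 and 1881 to 1087 and 1071 (1.70-fold lower). Nr0b1, Nr2f1 and Emx2os held in every fit. Emx2 missed without E11.5 replicate 1 (0.0954) or either E12.5 array (0.0667 and 0.0777), Gata6 once E12.5 replicate 2 (0.116) or E11.5 replicate 1 (0.0954) was left out, and Wt1 in 6 of 10 fits, with a highest adjusted p of 0.166 without E12.5 replicate 2. Sox9, the factor that drives Sertoli cell differentiation, measured 198.7 and 199.2 and then 139.2 and 126.8 and did not pass (adjusted p 0.312). Its 3 probe sets disagreed, with log2 differences of -0.53 to 0.12.

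Among the regulators that rose, Bhlhe40, a basic helix-loop-helix repressor, went from 8.3 and 7.7 to 73.8 and 63.5 (log2 1.82, SE 0.21, adjusted p 0.000301). Nfix, a nuclear factor I protein, went from 6.2 and 3.0 to 57.3 and 49.8 (log2 1.76, adjusted p 5.16e-05). Its 5 probe sets ranged from -0.01 to 1.76, and their mean gave an adjusted p of 0.0758. Cited1, a transcriptional coactivator named after its values were seen, went from 6.8 and 3.5 to 58.0 and 66.0 (log2 1.89, adjusted p 0.000517). These 3 had low signals on both E11.5 arrays and held in every fit. Tbx2, a T-box repressor, went from 98.7 and 109.5 to 183.8 and 222.3 (1.82-fold), with an adjusted p of 0.0133 that became 0.0785 without E11.5 replicate 1 and 0.157 without E12.5 replicate 2. Of 15 Hox cluster genes 1 rose (6.67% called, median -0.05), and of 34 other homeobox genes 2 fell (5.88% called, median -0.23).

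A few cell cycle genes fell. Of 32 cyclin, inhibitor and Rb family genes 3 fell and none rose (9.38% called, median 0.11), and all 3 that fell restrain the cell cycle. Cdkn1a (p21) went from 339.2 and 239.4 to 84.5 and 66.8 (3.30-fold lower, log2 -1.72, SE 0.23, adjusted p 0.000695), Cdkn1c (p57) from 2419 and 2115 to 977.0 and 751.1 (2.61-fold lower, log2 -1.38, SE 0.19, adjusted p 0.000695) and Gadd45g, a stress-response protein that also acts upstream of Sry, from 649.2 and 509.8 to 226.0 and 112.6 (3.35-fold lower, adjusted p 0.00275). They held in every fit. No gene of the 29 in the G2 and M phase list passed in limma. At an unadjusted p under 0.05 in limma the list had 14 of 29. This is a larger share than the 863 upward and 702 downward among all 10916 tested genes. In that list 28 genes had a log2 difference above 0, against 48.9% of all tested genes, with a median of 0.39. The summed signal of that list was 21590 and 17040 at E11.5 and 26420 and 23170 at E12.5. The S phase list had no call either (1 of 29 at an unadjusted p under 0.05), with a median of 0.21. Cks2 and Plk4, mitotic genes outside these lists that were picked after their values were seen, rose by 1.69-fold and 1.79-fold, but missed without E12.5 replicate 2 (0.166 and 0.153), E12.5 replicate 1 (0.212 and 0.112) or E11.5 replicate 1 (0.05 and 0.147), and Cks2 in 3 further fits. The proapoptotic gene Pmaip1 (Noxa) went from 10.1 and 10.6 to 43.4 and 67.3 (adjusted p 0.012, which became 0.151 once E12.5 replicate 2 and 0.0646 once E11.5 replicate 1 was left out).

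Enzymes of steroid metabolism changed in both directions, with 2 of 21 tested genes up and 1 down (14.3% called, against 3.27% of all genes, median -0.12). Hsd17b3, which makes testosterone from androstenedione, went from 37.1 and 30.7 to 141.3 and 224.1 (3.90-fold, log2 1.96, SE 0.20, adjusted p 9.37e-05). Hsd11b2, which inactivates glucocorticoids, went from 168.9 and 214.0 to 528.3 and 605.8 (2.82-fold, adjusted p 0.000184). Cyp11a1, the enzyme that starts steroid synthesis, fell from 67.8 and 86.7 to 5.0 and 4.5 (adjusted p 5.16e-05), but its 3 probe sets ranged from -2.16 to 0.49 and their mean gave an adjusted p of 0.0628. Star, which carries cholesterol into mitochondria, measured 129.5 and 113.3 and then 103.7 and 103.1 and did not pass (adjusted p 0.696). Of 7 fetal Leydig cell genes tested, Cyp11a1 was the only call (14.3%).

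In the glutathione and redox list 5 of 38 rose and none fell (13.2% called, median 0.01). Gstm6, a glutathione transferase, went from 21.5 and 46.5 to 181.1 and 297.9 (log2 2.36, SE 0.28, adjusted p 0.00029), and Vnn1, a pantetheinase that supplies cysteamine, from 99.6 and 95.0 to 345.7 and 347.0 (3.20-fold, adjusted p 5.16e-05). Gstm2 is a close relative of Gstm6, so their probe sets may share target; it went from 649.9 and 1111 to 1898 and 2822, and missed once E12.5 replicate 2 (0.152) or E11.5 replicate 1 (0.117) was left out. Gatm, the first enzyme of creatine synthesis, went from 39.4 and 87.1 to 272.1 and 361.4 (4.36-fold, log2 2.13, SE 0.28, adjusted p 0.000549), while Gamt, the second, fell from 374.2 and 303.9 to 163.6 and 143.0 (2.09-fold lower, and an adjusted p of 0.0574 without E11.5 replicate 1 and 0.0749 without E12.5 replicate 2). Gamt was named after its values were seen. Hsd17b3, Hsd11b2, Cyp11a1, Gstm6, Vnn1 and Gatm held in every fit.

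Most glycolysis and cholesterol genes had log2 differences below 0, with few calls, while 48.9% of all tested genes were above 0. Of 34 glycolysis and hypoxia genes 2 fell and none rose (5.88% called), 8 were above 0 and the median was -0.25. The aldolase Aldoa went from 3856 and 3702 to 1723 and 1782 (2.15-fold lower, log2 -1.10, SE 0.22, adjusted p 0.012), and all 5 of its probe sets went down. It missed without E11.5 replicate 1 (0.071) or either E12.5 array (0.0778 and 0.0793). The other was Kdm3a, a histone demethylase induced by hypoxia, from 1014 and 955.5 to 626.8 and 545.8, which also missed without E11.5 replicate 1 (0.0797) or either E12.5 array (0.0561 and 0.196). None of 27 cholesterol synthesis and uptake genes passed in limma, while 24 of 27 had a log2 difference of 0 or less and the median was -0.28. At an unadjusted p under 0.05 in limma this list had 7 of 27. That is a larger share than the 863 upward and 702 downward among all 10916 tested genes. None of 61 oxidative phosphorylation genes and none of 42 ribosomal protein genes passed (2 and 1 at an unadjusted p under 0.05), with medians of 0.11 and 0.02.

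Most germ cell genes that changed rose, and a few fell. Of 19 piRNA, Tudor and germ granule genes 5 rose and 1 fell (31.6% called, median 0.35), and of 16 meiosis genes 4 rose and 1 fell (31.2% called, median 0.39). Dazl, an RNA-binding protein that licenses germ cells, went from 102.7 and 195.3 to 815.9 and 686.1 (4.83-fold, log2 2.27, SE 0.24, adjusted p 9.37e-05), and Ddx4 (vasa) from 77.0 and 148.6 to 382.4 and 362.4 (3.14-fold, adjusted p 0.00234). Smc1b, a cohesin of meiotic chromosomes, was at 11.6 and 8.8 and then at 74.1 and 73.9 (log2 1.78, adjusted p 0.00105). Taf7l, an X-linked relative of a general transcription factor, went the other way, from 158.9 and 206.2 to 26.9 and 15.9 (5.33-fold lower, log2 -2.41, SE 0.22, adjusted p 4.65e-05). These 4 held in every fit.

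The remaining germ cell calls did not hold in every fit. Mael, Asz1 and Stk31, which act on piRNAs or in germ granules, rose by 2.55-fold, 2.16-fold and 2.08-fold. All 3 missed without E12.5 replicate 1 (0.0538, 0.296 and 0.309) and without E11.5 replicate 1 (0.0732, 0.0919 and 0.0834), Asz1 and Stk31 without E11.5 replicate 2 (0.118 and 0.123), Mael without E12.5 replicate 2 (0.0504) and Stk31 without either E14.5 array (0.0503 and 0.0504). The synaptonemal genes Sycp3 and Sycp2 rose by 2.20-fold and 2.17-fold and missed once E12.5 replicate 1 (0.0611 and 0.145) or E11.5 replicate 1 (0.0646 and 0.141) was left out, and Sycp2 without E12.5 replicate 2 (0.0777). Tdrd9, a piRNA helicase, fell from 16.4 and 24.1 to 3.1 and 4.2 and passed in 3 of 10 fits, and Sohlh1, a factor of spermatogonia, fell from 36.9 and 44.7 to 19 and 6.1 and passed in 3 of 10, with highest adjusted p of 0.118 without E12.5 replicate 1 and 0.309 without E12.5 replicate 2. The summed signal of the germ cell marker list was 4332 and 4744 at E11.5 and 7055 and 5492 at E12.5, higher on E12.5 replicate 1 than on replicate 2. Stra8, a gene of meiotic entry, was below the filter at 10.6 and 32.8 and then 26.4 and 42.8.

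Markers of other cell types that a gonad preparation can hold were read beside these results. None of 34 endothelial genes passed (median -0.15), and their summed signal was 5126 and 6674 at E11.5 and 5062 and 5382 at E12.5. None of 13 macrophage and leukocyte genes passed (median -0.41, 1 above 0), with sums of 2152 and 2154 and then 1521 and 1510. Of 12 mesonephric and nephric duct genes none passed, with sums of 1587 and 2078 and then 1476 and 1588. In limma at an unadjusted p under 0.05 these lists had 7 of 34, 5 of 13 and 1 of 12. Over all 10916 tested genes 863 upward and 702 downward reached it. That is a smaller share than in the endothelial and macrophage lists and a larger one than in the duct list. The duct marker Gata3 was at 5.1 and 4.3 and then 3.0 and 2.4, while Calb1, a calcium-binding protein of the duct, was below the filter and untested at 333.3 and 291.3 and then 68.1 and 38.7. The part of duct cells in the other falls was not tested. Among 13 surface epithelium genes 1 rose and 2 fell (23.1% called, median 0.23, 8 above 0). Gpm6a, a membrane glycoprotein, rose from 60.4 and 69.2 to 143.2 and 229.4 (2.45-fold, adjusted p 0.00729), and missed once E12.5 replicate 2 (0.118) or E11.5 replicate 1 (0.0638) was left out. Wt1 fell as given above. Podxl, a sialomucin of the coelomic surface, fell from 2022 and 1504 to 884.6 and 831.6 (2.01-fold lower, adjusted p 0.0072), and missed once E12.5 replicate 2 (0.0777) or E11.5 replicate 1 (0.0684) was left out. Of 8 neural crest and neuron genes 3 rose and none fell (37.5% called, median 0.28). These were Gfra2, given above, Hand2, a factor of sympathetic neurons that other tissues also use, and Erbb3, a neuregulin receptor. Hand2 went from 111.2 and 67.1 to 193.1 and 197.6 (adjusted p 0.0235) and Erbb3 from 92.3 and 108.6 to 201.9 and 173.1 (adjusted p 0.0223). Both missed without either E12.5 array (0.112 and 0.147 for Hand2, 0.199 and 0.0799 for Erbb3), Hand2 without E11.5 replicate 2 (0.134) and Erbb3 without replicate 1 of that stage (0.123). With the mean of probe sets the adjusted p was 0.749 and 0.0936. Of 6 skeletal muscle genes 1 rose and none fell (16.7% called). This was Tnnc1, a troponin also made in heart, which went from 30.6 and 34.6 to 141.9 and 125.6 (3.08-fold, adjusted p 0.000497) and held in every fit. The part of nerve or muscle cells in the other rises was not tested. Of 11 smooth muscle genes Mylk and Acta2 rose and Myl9 fell (27.3% called). Each missed without E12.5 replicate 2 (0.0603, 0.0655 and 0.0592), and the 3 probe sets of Acta2 ranged from 0.07 to 1.15.

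None of 7 erythroid genes passed (0 at an unadjusted p under 0.05), and the embryonic globin Hbb-bh1 measured 7595 and 5739 and then 5021 and 4627. The adult globin Hbb-b2, which has near-identical paralogs that its probe sets may also read, rose from 29.0 and 15.9 to 155.7 and 200.3 (log2 2.35, SE 0.23, adjusted p 5.16e-05). It held in every fit that left out an array, but without probe sets marked _x_at or _s_at its log2 was 1.01 (adjusted p 0.0798). Afp, the fetal serum protein alpha-fetoprotein, differed between the E12.5 arrays. It measured 9.2 and 21.5 at E11.5 and 229.0 and 51.6 at E12.5 (adjusted p 0.0152, which became 0.0833 once E12.5 replicate 1 and 0.127 once E11.5 replicate 1 was left out).

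The later stages place these changes in time. Of the 213 genes that rose, 43 had their highest mean of the 5 stages at E12.5, while 34 peaked at E14.5. The peak came at E16.5 for 42 and at E18.5 for 94. Of the 144 that fell, 118 had it at E11.5. A risen gene cannot peak at E11.5 nor a fallen one at E12.5, so the choice of genes fixes part of these counts. Over all tested genes the highest mean was at E11.5 in 22.2%, at E12.5 in 17.6%, at E14.5 in 17.5% and in the last 2 stages in 23.2% (E16.5) and 19.5% (E18.5). The stages share arrays with this comparison, so the later levels are given as values. Col9a1 was back at 94.0 and 58.8 by E14.5 (log2 -1.65 against E12.5, adjusted p 0.0019, in a step where 5.26% of genes were called). Dkk1, at 164.3 and 168.0 on the E12.5 arrays, measured 24.1 and 17.1 at E18.5, and Prokr2, at 133.0 and 156.5, measured 39.4 and 18.3. In contrast Col6a2 measured 2725 and 2630 at E14.5 and 4753 and 3917 at E18.5, and Dcn and Gstm6 were also higher at E18.5, at 4211 and 3755 and at 1040 and 1482. Hsd17b3 measured 415.4 and 344.1 at E14.5 and 898.2 and 915.2 at E18.5.

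Some genes that fell had higher signals again at later stages, and others did not. Taf7l measured 147.7 and 122.1 at E14.5. Cyp11a1 went from 5.0 and 4.5 at E12.5 to 969.6 and 1508 at E14.5, and Tdrd9 and Sohlh1 to 56.4 and 44.7 and to 50.6 and 66.3. The probe sets of Cyp11a1 disagreed on its fall. Tdrd9 and Sohlh1 had low signals, and their falls did not hold in every fit. Myl9 went back up from 756.9 and 712.7 to 1472 and 1302. Snx31 and Gbp2 were lower still at E14.5, at 26.1 and 33.7 and at 38 and 30.1. Dclk1 measured 109.1 and 113.1 at E14.5 and 39.8 and 62.4 at E18.5. Nr0b1, at 45.0 and 37.5 at E14.5, stayed under 93 on every later array.

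**Figure D4:**
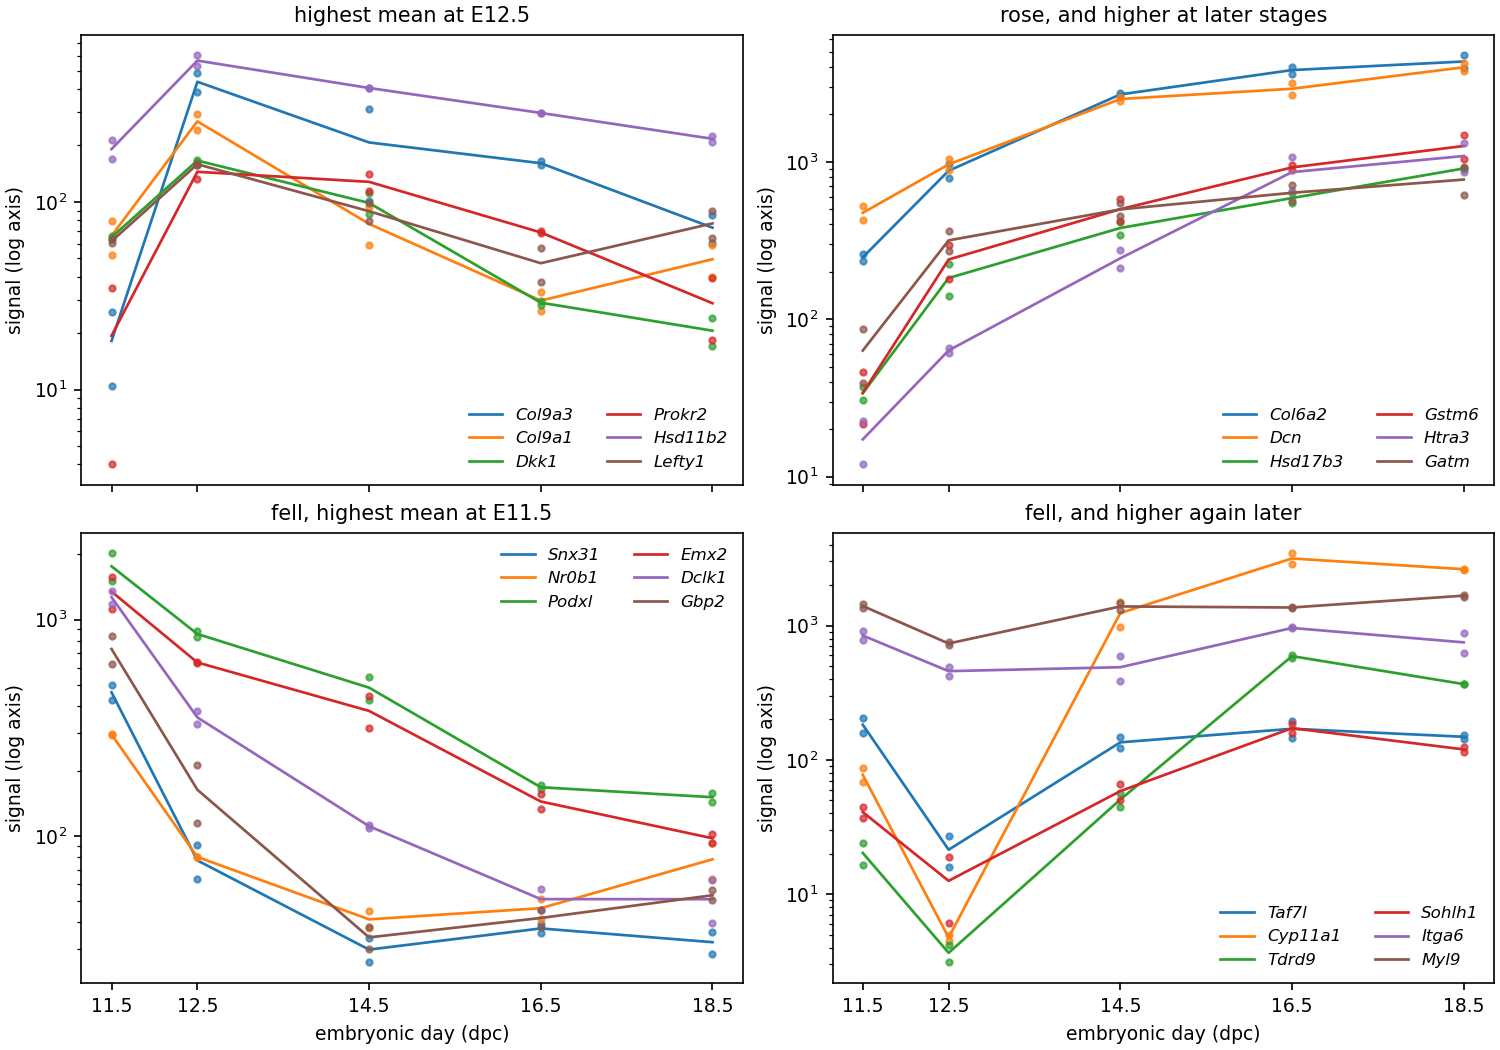
Signal (log axis) against embryonic day for 24 called genes in 4 panels, by whether they rose or fell from E11.5 to E12.5 and what followed. Points are single arrays (2 per stage) and lines join stage means; the panels at upper left and lower right show genes that turned back after E12.5, and Itga6 in the latter had E14.5 signals of 387.3 and 591.3.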

How the data were processed

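RNA of embryonic testis was extracted with Trizol and hybridised as biotin-labelled target, per the labels' protocols. The deposited table holds 1 linear intensity per probe set and array. No source used here names the software behind the authors' values. The 2% trimmed mean is 125 on each array, so the authors' values are scaled, and they were not normalized again. From the deposited intensities log2(signal + 16) was computed. Of 45101 probe sets 34945 had 1 gene symbol, 932 several and 9224 none (platform annotation, symbols updated through the RefSeq table of GRCm38.p6). The probe set with the highest mean stood for each of 18193 genes, and genes under the 40th percentile of mean log2(signal + 16), which equals a signal of 49.1, were left out. A linear model with 1 mean per stage was fitted to all 10 arrays in limma 3.58.1 (R 4.3.3, trended eBayes, 5 residual and 8.59 prior degrees of freedom), with Benjamini-Hochberg adjustment over 10916 genes. Tables and plots used python 3.11.15, numpy 2.4.6, pandas 2.3.3 and matplotlib 3.10.9. Tested on simulated data for this comparison and 10916 genes, the fit recovered 83 of 100 genes changed by log2 1 and 100 of 100 changed by log2 2, with 17 false calls. Named genes are the 15 largest rises and falls, called members of 57 gene lists and a fixed panel. Clone, predicted and accession-style gene names were left out of the largest rises and falls. Other genes are said to be chosen after their values were seen. The comparison, the lists and the panel were chosen with earlier results of these data known. With 2 arrays a stage, the number of arrays limits the precision. Alternatives were other filters, pseudocounts, scalings, probe set rules, array subsets and blocks. The scanner report files served only for scan day, fluidics module and similar settings.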

Additional observations from a re-analysis of the deposited data

How the results depend on the processing

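Of 357 calls, 113 passed in all 10 fits that left out 1 array and 94 in all 22 alternatives. Leaving out 1 array gave 148 to 368 changed genes, 88 to 256 higher and 60 to 139 lower at E12.5. Without E11.5 replicate 2, 69.6% of the calls were upward, against 59.7%. With only the 4 arrays of the stages fitted, 158 genes changed (90 higher, 68 lower), 156 of them among the 357. A fluidics module block gave 566 (345 higher, 221 lower). The replicate block gave 511 (313 higher, 198 lower), but nothing in the labels says that a number marks a shared litter or batch. Deviations of same-numbered arrays correlated at 0.363 for E11.5 and E12.5, which also shared a fluidics module, and at 0.00444 to 0.366 for other stages, so pairing is not settled. The other filters, pseudocounts, scalings and probe set rules, and a fit without trend, gave 264 to 363 changed genes. The cause of these shifts was not tested. Scan day and stage cannot be told apart. Low signals limit genes such as Hhip, Nfix and Bhlhe40, whose folds depend on the added 16.

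Among the panel genes, 16 that did not pass changed sign under some setting, so no direction is given for them. Leaving out 1 array moved the log2 difference from -0.43 to 0.13 for Aldh1a2, from -0.36 to 0.06 for Cdh5, from -0.02 to 0.39 for Cxcl12, from -0.80 to 0.12 for Cxcr4, from -0.14 to 1.83 for Cyp17a1, from -0.01 to 0.60 for Cyp26b1, from -0.16 to 0.22 for Foxl2 and from -0.16 to 0.09 for Hbb-y. The ranges were -0.18 to 0.47 for Igf1r, -0.02 to 0.07 for Lamb1, -0.61 to 0.32 for Lamc1, -0.04 to 0.64 for Myh11, -0.64 to 0.28 for Pecam1, -0.30 to 0.47 for Pou5f1 and -0.14 to 0.17 for Zfpm2. With the mean of all probe sets the difference was -0.02 for Cbx2 and for Cxcl12, -0.08 for Foxl2, 0.05 for Hbb-y and -0.13 for Zfpm2, against 0.37, 0.19, 0.03, -0.04 and 0.01. Without _x_at and _s_at probe sets it was 0.16 for Hbb-y. The cause was not tested.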

Other observations

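A larger share of called genes than of other genes had a called neighbour on the chromosome. The pattern was picked after the values were seen and is given with no test. Among 10662 tested protein-coding genes placed in order by RefSeq, 62 of 351 called genes (17.7%) had a called neighbour, as did 615 of the genes not called (5.96%). There were 34 adjacent pairs, of which 26 moved the same way (9 rose, 17 fell) and 8 moved in opposite ways. The pairs include Col6a2 with Col6a1 and Dcn with Lum, which rose, and Gbp2 with Kyat3, which fell. Some pairs, such as Gbp2b with Gbp2, hold related genes.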
